A study of Mus musculus with 2 samples.

Results

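The 6 genes that encode the 14-3-3 proteins of the brain were described in 2 coronal brain sections measured with Visium spatial transcriptomics, in which RNA is captured on a grid of barcoded spots under the tissue. The members, Ywhab, Ywhae, Ywhag, Ywhah, Ywhaq and Ywhaz, were chosen by gene symbol, and all 6 were found among the 32285 genes of the count matrices, each in 1 row. Both sections came from adult male mice of the genotype ArcCreERT2::eYFPflx on a C57BL/6 background, so both groups carried the same alleles. In this genotype an inducible form of Cre recombinase is under the Arc promoter and can switch on a yellow fluorescent protein. The animal labelled trained had learned active place avoidance, in which a foot shock marks a zone of a rotating arena, and the animal labelled untrained had been placed in the same arena with the shock off. Both brains were taken after a retention test without shock. Each group was 1 section of 1 animal, so no test between the groups was possible, spots are not replicates, and the effect of training, of the animal, of the plane of the section and of the library cannot be told apart. Every interval given below is a 95% interval for counting error only.

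The section labelled trained had 4152 spots and 29515831 UMIs (unique molecular identifiers, by which copies of the same captured molecule are counted 1 time), with a median of 5950.5 UMIs per spot. The section labelled untrained had 3738 spots and 59029131 UMIs, with a median of 13766.5 per spot. Mitochondrially encoded genes took 12.33% and 16.15% of the UMIs, and 3448 spot barcodes, which are positions of the array, occurred in both sections. Arc, the activity-regulated gene whose promoter drives Cre in these animals, had a UMI in 202 of 564 hippocampal spots labelled trained and in 341 of 540 labelled untrained, at 81.9 and 74.9 UMIs per 1000000 UMIs. The activity-regulated genes Egr1 and Jun had a UMI in 250 and 178 of those spots labelled trained and in 381 and 306 labelled untrained. At equal depth, with each spot thinned to 1000 UMIs, Arc had a UMI in 6.39% of spots labelled trained and 5.74% labelled untrained, Egr1 in 10.5% and 12.2%, and Jun in 6.57% and 6.3%. The number of hippocampal spots and the counts of Egr1 and Jun in each section were nearer to those that the study gives for the opposite label. Arc favoured neither assignment, since both sections had it in more spots than the study gives for either label. The outline of the hippocampus used here was not the study's own crop, and the study normalised its data, so these counts are not fully alike. The labels of the deposited files may thus be exchanged, which the files alone cannot settle. Each direction below is that of the deposited label. An exchange would turn the sign of every ratio between the sections, reverse its percentile among genes and swap the counts of higher and lower genes.

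The 14-3-3 proteins are small acidic adaptors that work as dimers. Each dimer binds short motifs of other proteins once a serine or threonine in them has been phosphorylated, and so holds a client in the cytoplasm, blocks its active site, or bridges a pair of partners. They are among the most abundant soluble proteins of the brain, and the gene symbols recall their early description as activators of tyrosine and tryptophan hydroxylase, the enzymes that start dopamine and serotonin synthesis. Ywhab encodes the beta protein, Ywhae epsilon, Ywhag gamma, Ywhah eta, Ywhaq theta (also called tau) and Ywhaz zeta. The remaining paralog, Sfn, encodes 14-3-3 sigma of epithelia, and it had 29 and 65 UMIs in the whole sections, or 0.983 and 1.1 per 1000000.

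The members arose by gene duplication and resemble each other in sequence. Because this bears on whether reads can be assigned to 1 paralog, the stretch of 60 coding bases with the most positions shared by all 6 genes is shown. It lies within 1 exon of each gene, on GRCm38 (mm10), and the capitals mark the bases that differ from Ywhaz.
Ywhaz: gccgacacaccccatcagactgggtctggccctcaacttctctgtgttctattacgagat
Ywhah: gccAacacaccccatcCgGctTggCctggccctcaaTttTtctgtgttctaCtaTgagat
Ywhag: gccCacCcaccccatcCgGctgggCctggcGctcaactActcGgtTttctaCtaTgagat
Ywhaq: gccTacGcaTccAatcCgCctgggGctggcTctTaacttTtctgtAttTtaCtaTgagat
Ywhab: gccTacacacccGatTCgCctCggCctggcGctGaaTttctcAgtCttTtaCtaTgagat
Ywhae: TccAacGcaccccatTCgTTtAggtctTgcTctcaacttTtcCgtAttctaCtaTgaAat
The windows lie at chr15:36775456-36775515 on the minus strand (Ywhaz), chr5:33026952-33027011 on the plus strand (Ywhah), chr5:135911182-135911241 on the minus strand (Ywhag), chr12:21396322-21396381 on the minus strand (Ywhaq), chr2:164015295-164015354 on the plus strand (Ywhab) and chr11:75756937-75756996 on the plus strand (Ywhae). Of the 60 positions 37 were identical in all 6 genes. Ywhah differed from Ywhaz at 9 bases, Ywhag at 11, Ywhaq at 14, Ywhab at 15 and Ywhae at 16. Over the whole coding sequences Ywhag and Ywhah were the most similar pair, with 78.9% of aligned bases identical and a longest shared run of 30 bases. Ywhab and Ywhaz shared 75.1%, Ywhaq and Ywhaz 74.1%, and Ywhae shared between 61.5% and 63.4% with each of the others.

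In the GENCODE vM21 annotation of GRCm38, Ywhab was at chr2:163994960-164018588 (plus strand, 6 exons), Ywhae at chr11:75732869-75765845 (plus, 6 exons) and Ywhag at chr5:135908409-135934616 (minus, 2 exons). Ywhah was at chr5:33018816-33027966 (plus, 2 exons), Ywhaq at chr12:21390071-21417637 (minus, 6 exons) and Ywhaz at chr15:36770770-36796929 (minus, 7 exons). The spot UMIs come from captured poly(A) ends, so the closest look-alikes were copies of the transcripts elsewhere in the genome. Stretches of at least 90 bases with at least 95% identity to the transcript were found at 6 other loci for Ywhaq, 3 for Ywhaz and 1 for Ywhah, and at none for the other members. The counts of those 3 paralogs are uncertain to the extent that reads were shared with such copies. The 3 annotated Ywhaq pseudogenes were not rows of the matrix, and Gm4419, which overlaps Ywhaq on the opposite strand, had 44 and 156 UMIs.

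Across the brain the members fell into 3 patterns. Ywhag, Ywhah and Ywhab, and less closely Ywhaz, were highest in the CA3 pyramidal layer of the hippocampus and low in white matter, Ywhaq was highest in white matter, and Ywhae was nearly even. As the plot of levels by region shows, the patterns were alike in both sections, with Pearson correlations between the sections over 14 regions of 0.99 for Ywhah, 0.95 for Ywhag, 0.92 for Ywhae and Ywhaq, 0.91 for Ywhaz and 0.89 for Ywhab. The regions were clusters of spots named from marker genes, and the clusters were built without the members. Levels are given as UMIs per 1000000 UMIs of the region, pooled over its spots (CPM). Spots hold several cells, so a higher level cannot be told apart from more cells of a type with the same level, and Visium levels say nothing of protein.

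**Figure D1:**
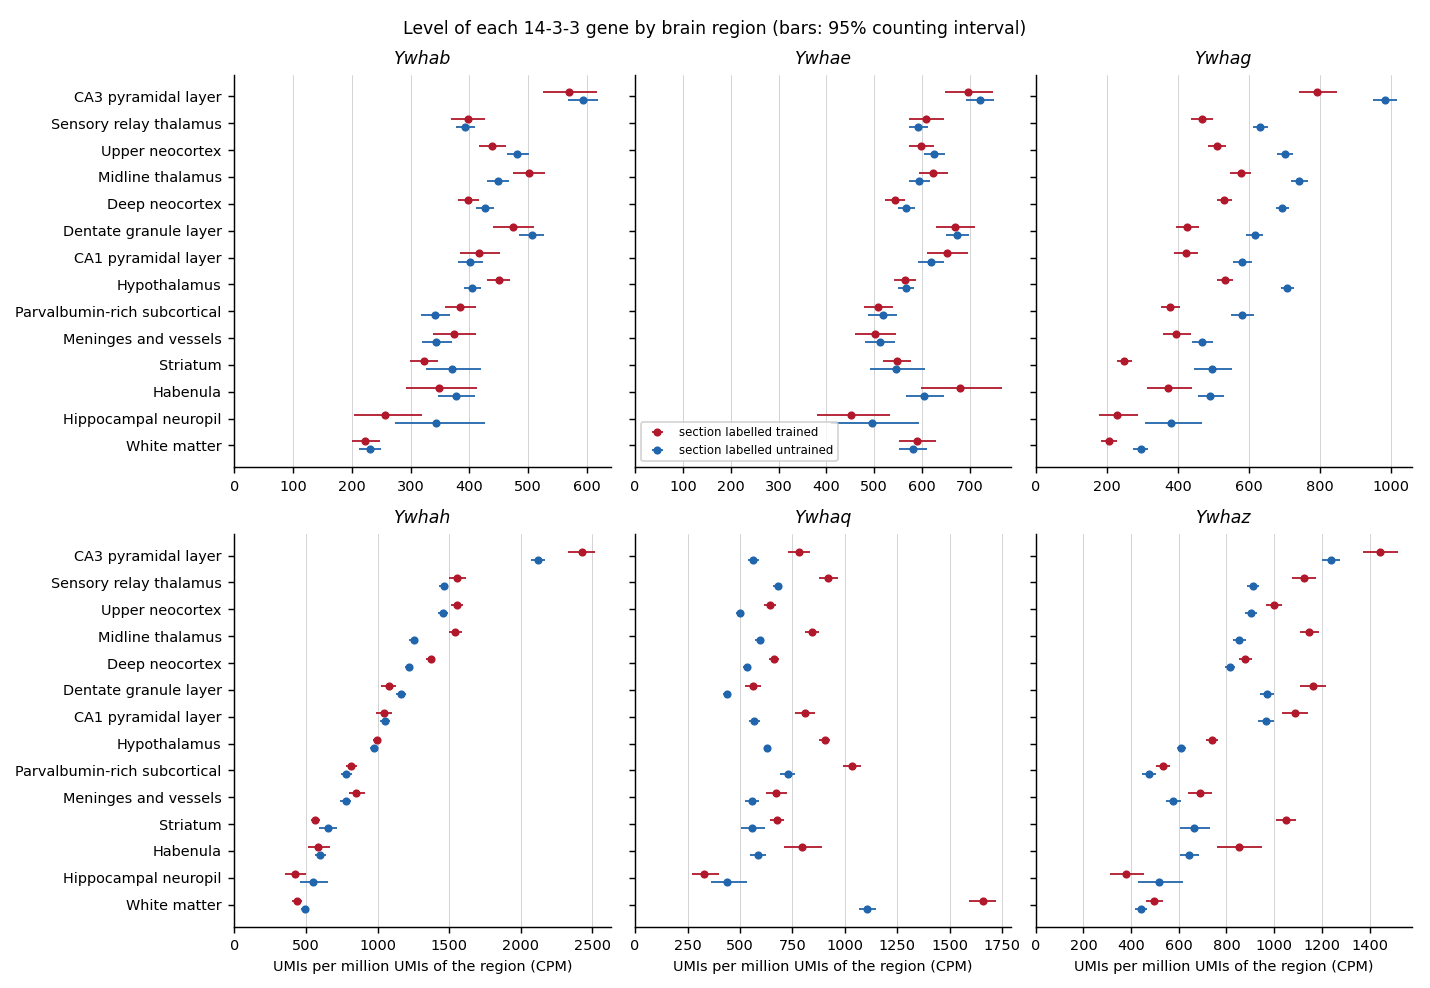
Level of each 14-3-3 gene (CPM, UMIs per 1000000 UMIs of the region) in 14 brain regions, with red points for the section labelled trained and blue for the section labelled untrained, and bars for the 95% counting interval. CA3 stands highest for Ywhab, Ywhae, Ywhag, Ywhah and Ywhaz in both sections, and white matter for Ywhaq; red points lie left of blue ones for Ywhag in all 14 regions and right of them for Ywhaq in 13.

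Ywhah, which encodes 14-3-3 eta, varied most between regions in the pooled levels. Its level in CA3 was 2426 CPM [2334, 2521] in the section labelled trained and 2123 CPM [2074, 2173] in the section labelled untrained. The sensory relay thalamus followed with 1556 and 1463 CPM and the upper neocortex with 1555 and 1457 CPM, and the order of these neighbours was within their counting intervals. CA3 was above every other region in both sections. At the low end stood white matter with 437 and 490 CPM, hippocampal neuropil with 420 and 550 CPM, the striatum with 566 and 651 CPM and the habenula with 585 and 599 CPM. The highest region exceeded the lowest 5.76-fold in the section labelled trained and 4.33-fold in the section labelled untrained. The latter span was 2.115 on the log2 scale, and it was 2.84 with coarser clusters (resolution 1.0), in which the choroid plexus was the lowest. With each spot weighted equally in the section labelled trained, the log2 span of Ywhah was 2.29 and that of Ywhaq was 2.36, so the order of these members turned there. Without mitochondrially encoded genes in the total, white matter and not the neuropil was the lowest for Ywhah in the section labelled trained.

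Within the hippocampus the steps of Ywhah were as large as those between distant regions. The dentate granule layer held 1077 and 1163 CPM and the CA1 pyramidal layer 1045 and 1051 CPM, both far under CA3. Against the rest of its section, Ywhah in CA3 differed by 1.13 and 1.04 on the log2 scale. It was lower than the rest in the habenula (-0.99 and -0.89), the neuropil (-1.46 and -0.99), the striatum (-1.09 and -0.76) and white matter (-1.45 and -1.20).

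Ywhag, which encodes 14-3-3 gamma and is known for severe epilepsy of early childhood when mutated in people, was also highest in CA3. Among the 14 regions it was lowest in white matter in both sections. CA3 held 793 CPM [741, 848] and 984 CPM [951, 1018], the midline thalamus 577 and 743 CPM, the hypothalamus 533 and 709 CPM, and white matter 205 and 296 CPM. CA3 and then the midline thalamus stood above the region that followed in both sections, whereas the hypothalamus and the neocortex could not be ranked. The span from white matter to CA3 was 3.86-fold and 3.33-fold. In the striatum the levels of Ywhag lay farthest apart between the sections, with 249 CPM [229, 270] in the section labelled trained and 497 CPM [445, 554] in the section labelled untrained.

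Ywhab, which encodes 14-3-3 beta, followed the same course with smaller steps. Over the 14 regions it ran from 570 and 593 CPM in CA3 to 222 and 230 CPM in white matter, a span of 2.56-fold and 2.58-fold. The dentate granule layer held 475 and 506 CPM and the midline thalamus 502 and 448 CPM. In the section labelled trained most neighbours in the order of regions were within their counting intervals, and only CA3 stood above the next region.

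Ywhaz, which encodes 14-3-3 zeta, was also high in the other hippocampal cell layers. CA3 led with 1445 CPM [1374, 1518] and 1236 CPM [1199, 1275], and the dentate granule layer came next in both sections with 1162 and 969 CPM. The CA1 pyramidal layer held 1086 and 967 CPM, with a counting interval that overlapped that of the dentate layer in both sections. In the section labelled trained the midline thalamus with 1148 CPM and the sensory relay thalamus with 1125 CPM lay between these layers. Among the 14 regions the lowest levels of Ywhaz were in the neuropil (378 and 516 CPM), white matter (498 and 442 CPM) and the parvalbumin- and neurofilament-rich subcortical region (533 and 476 CPM). The span was 3.80-fold and 2.80-fold.

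Ywhae, which encodes 14-3-3 epsilon and lies in the region deleted in a human cortical malformation syndrome, was the most even member. Over the 14 regions its level stayed between 452 CPM in the neuropil and 696 CPM in CA3 in the section labelled trained. It stayed between 495 and 720 CPM, in the same regions, in the section labelled untrained. When the total excluded mitochondrially encoded genes, the parvalbumin- and neurofilament-rich region was its lowest in both sections in place of the neuropil. In the section labelled trained no region could be ranked above the next, and the habenula with 679 CPM could not be told from CA3. White matter, where 4 other members were low, held 590 and 581 CPM of Ywhae, close to its level over the whole sections, 578 and 586 CPM.

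Ywhaq, which encodes 14-3-3 theta, ran the other way. White matter, marked by the myelin genes Mal and Mog of oligodendrocytes, held 1657 CPM [1594, 1722] and 1108 CPM [1068, 1148]. The parvalbumin- and neurofilament-rich region followed with 1034 and 728 CPM and the sensory relay thalamus with 921 and 679 CPM. White matter and the parvalbumin- and neurofilament-rich region each stood above the next region in both sections. The latter was also richest in white matter markers after white matter itself. Their sum was 13170 and 14500 CPM there, against 7289 and 6513 CPM over the whole sections, and its part in the level of Ywhaq was not tested. The dentate granule layer held only 561 and 438 CPM, the upper neocortex 642 and 499 CPM, and the neuropil 330 and 441 CPM. At equal depth, in thinned spots, Ywhaq had a UMI in 79.6% of 329 white matter spots labelled trained and in 66.5% of 334 labelled untrained (99.4% and 99.7% before thinning). For the other members the thinned shares in white matter ran from 16.7% to 42.6% in the section labelled trained and from 18.6% to 44.6% in the section labelled untrained. No region is known to lack these genes, and in choroid plexus the thinned share of Ywhaq was 30.8% of 26 spots labelled trained and 23.3% of 86 labelled untrained.

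Counted by a fixed rule, at least 1.5-fold against the rest of the section in both sections, 3 of 6 members were higher in CA3 (Ywhag, Ywhah and Ywhaz), where 7.0% of 8412 genes were. White matter held 1 member that was higher (Ywhaq, against 8.93% of genes) and 4 that were lower (Ywhab, Ywhag, Ywhah and Ywhaz, against 22.8% of genes). The neuropil had 3 lower members (Ywhag, Ywhah and Ywhaz), where 19.6% of genes were lower. Mitochondrially encoded genes took 30.02% and 30.6% of the UMIs there, more than in any other of the 14 regions, and with these genes left out of the totals 1 member was lower (Ywhah, at -1.14 and -0.72), against 8.8% of genes. The members called in the other regions were the same in number under that scaling, an alternative chosen after seeing the data. Ywhah was also lower in the habenula (7.86% of genes) and the striatum (4.04%), and Ywhaz in the parvalbumin- and neurofilament-rich region (10.3%). Ywhae was past this limit in no region. The hippocampus as a whole was past it for none of the 6 members (7.38% of genes were higher there and 9.65% lower), with Ywhaz the farthest at 0.42 and 0.54 on the log2 scale and Ywhaq below the rest at -0.30 and -0.25.

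The CA1 pyramidal layer and the dentate granule layer were each made of 2 clusters, and the members differed between them. In CA1, cluster 19 (53 spots in each section) held 1305 and 1345 CPM of Ywhah, 1386 and 1289 CPM of Ywhaz and 1013 and 716 CPM of Ywhaq. Cluster 10 (131 and 138 spots) held 719 and 782 CPM of Ywhah, 711 and 671 CPM of Ywhaz and 556 and 432 CPM of Ywhaq, lower in both sections for all 3. In the dentate granule layer cluster 17 exceeded cluster 11 for Ywhaz (1412 and 1192 against 885 and 735 CPM) and for Ywhah (1263 and 1397 against 871 and 918 CPM). Ywhaq was closer between these clusters, with 591 and 452 against 529 and 423 CPM. The clusters with higher levels were also the deeper ones. Median UMIs per spot were 13687 and 24229 in cluster 19 against 4173 and 10970 in cluster 10. They were 12741 and 32439 in cluster 17 against 6350 and 17072 in cluster 11. The mean standardised level of the neuropil markers was 1.29 in cluster 10 and 1.14 in cluster 11, against 0.62 in cluster 19 and 0.6 in cluster 17. The part of the spot that is cell body and the part that is neuropil could not be separated in these clusters.

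**Figure D2:**
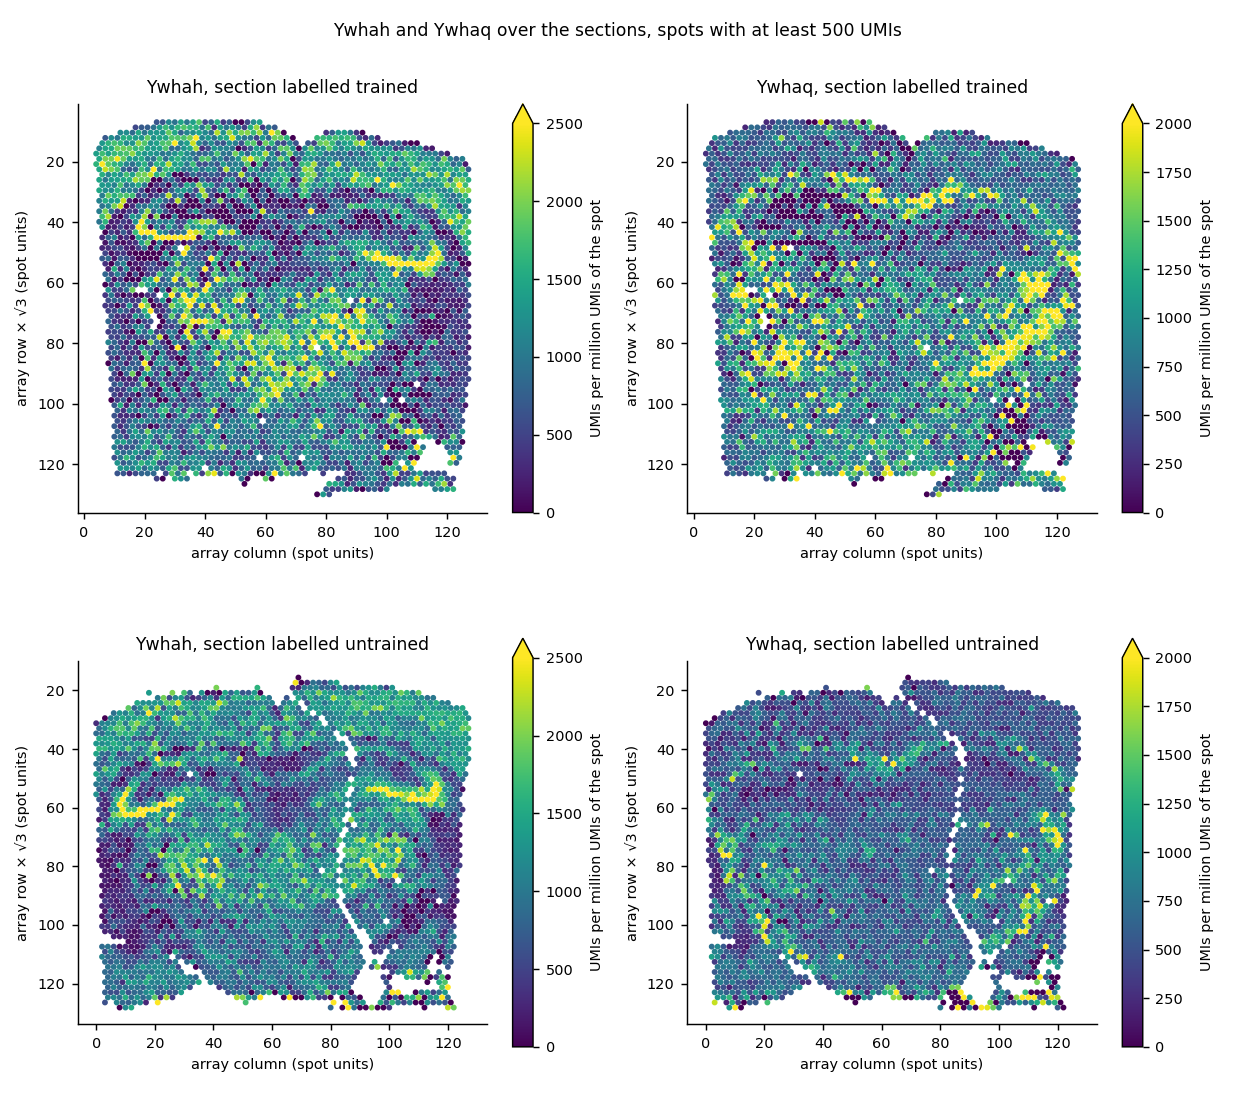
Level of Ywhah (left) and Ywhaq (right) in each spot with at least 500 UMIs, in UMIs per 1000000 UMIs of the spot, over the section labelled trained (top) and the section labelled untrained (bottom), placed by array column and row; levels above the top of each colour scale take its last colour. Ywhah is brightest along the curved CA3 layer on both sides, and Ywhaq along the fibre tracts above and beside the hippocampus.

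The maps of single spots show the same contrast between Ywhah and Ywhaq. The deposited tables held a score for it, Moran's I, which is higher the more neighbouring spots share a level. Ywhah had the highest score of the members in both sections, 0.333 and 0.361, at rank 166 of 20513 and 177 of 21498 genes. Ywhaq scored 0.275 at rank 280 in the section labelled trained and 0.185 at rank 1073 in the section labelled untrained. The score of Ywhae was the lowest in the section labelled trained, 0.133, and it was 0.198 in the other. Depth differed between the sections, and its part in the score was not tested.

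Shares of the summed 14-3-3 UMIs do not depend on the total that the levels were scaled to. Each UMI stands for 1 captured transcript end and was not scaled by transcript length. Over the whole section Ywhah took 26.8% of the 14-3-3 UMIs in both sections, more than any other member. Ywhaz followed with 20.9% and 19.0%, Ywhaq with 18.9% and 14.5%, Ywhae with 13.4% and 14.3%, Ywhag with 10.7% and 15.3%, and Ywhab with 9.43% and 10.1%. In these pooled shares Ywhaq lay above Ywhag in the section labelled trained and below it in the section labelled untrained. The latter order turned in thinned spots (16.3% Ywhaq and 14.9% Ywhag) and with spots weighted equally (17.6% and 14.81%). The order of Ywhaz over Ywhaq in the section labelled trained turned as well, with 20.79% Ywhaq and 19.96% Ywhaz in thinned spots and 22.05% and 19.34% with spots weighted equally. For Ywhaq the share differed more between regions than between sections. In white matter Ywhaq alone gave 45.9% and 35.2% of the 14-3-3 UMIs, in CA3 11.6% and 9.06%. Ywhah gave 36.2% and 34.1% in CA3, and in the dentate granule layer Ywhaz gave 26.6% and 22.2%.

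**Figure D3:**
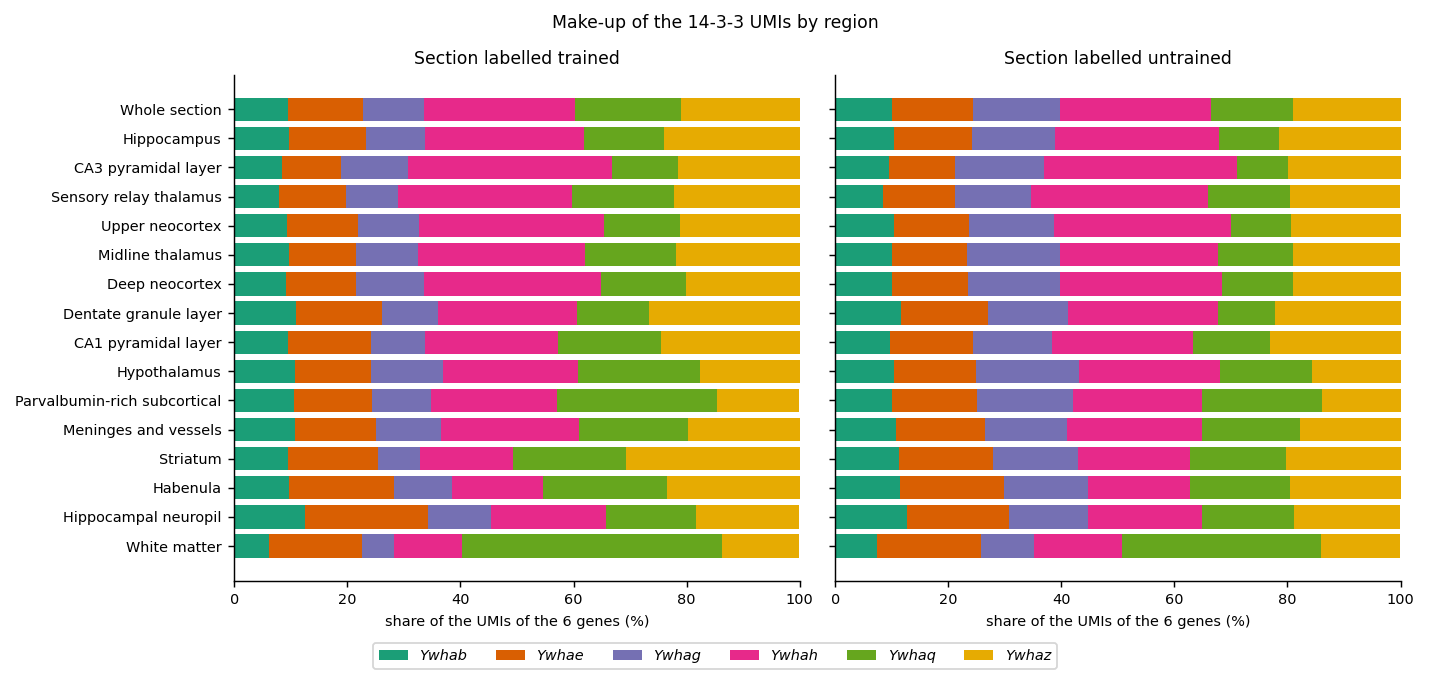
Share of each gene in the summed UMIs of the 6 14-3-3 genes (percent, horizontal axis) for the whole section, the hippocampus and 14 regions, in the section labelled trained (left) and the section labelled untrained (right). Ywhaq widens to 45.9% and 35.2% in white matter, and the Ywhag segment is narrower on the left, 10.7% against 15.3% over the whole section.

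The likeness between members was described by the Pearson correlation of log2(CPM + 1) over the 14 regions, which share libraries and depth, so these values carry no test. Ywhab and Ywhag correlated at 0.94 and 0.90, Ywhag and Ywhah at 0.94 and 0.91, and Ywhah and Ywhaz at 0.76 and 0.88. Ywhaq correlated with the others between -0.07 and 0.33 in the section labelled trained and between -0.68 and -0.11 in the section labelled untrained. The summed level of 4 general neuronal markers over the regions correlated with Ywhah at 0.93 and 0.89, with Ywhag at 0.88 and 0.86, and with Ywhaq at -0.17 and -0.46. The sum of 8 white matter markers correlated with Ywhaq at 0.65 and 0.80 and was negative for each other member in both sections.

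Among 2585 genes with at least 2000 UMIs in each section, the genes most like each member over the regions were named by the lower of the section correlations. Ywhag was most like Snap91, which encodes a clathrin adaptor of synaptic vesicles (0.97), Atp6v1b2, a subunit of the vacuolar proton pump (0.95), and Syp, the synaptic vesicle protein synaptophysin (0.93). Ywhab was most like Atp6v1a and Atp6v0a1, subunits of the same pump (0.96 and 0.93), and the adhesion gene Cadm3 (0.91). Genes most like Ywhah included Rab6b, a small GTPase of membrane traffic (0.92), and Syn1, the synaptic vesicle protein synapsin (0.92). Ywhaz was most like the ubiquitin ligase gene Pja2 (0.90), Tecpr1 of autophagy (0.89) and the sorting nexin Snx10 (0.88). Ywhaq was most like Sec11c of the signal peptidase (0.89), the dynein light intermediate chain Dync1li2 (0.87) and the kinase gene Aatk (0.86). The nearest genes to Ywhae, Ube2d3, Hnrnpul2 and Zfp706, reached only 0.82, 0.81 and 0.81.

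Because Ywhah and Ywhag moved together over regions and have the most similar coding sequences, the 250 bases before the transcription start of both are shown from RefSeq on GRCm38. The capitals mark a cyclic AMP response element, TGACGTCA, and the GC box, GGGCGG on either strand.
Ywhah: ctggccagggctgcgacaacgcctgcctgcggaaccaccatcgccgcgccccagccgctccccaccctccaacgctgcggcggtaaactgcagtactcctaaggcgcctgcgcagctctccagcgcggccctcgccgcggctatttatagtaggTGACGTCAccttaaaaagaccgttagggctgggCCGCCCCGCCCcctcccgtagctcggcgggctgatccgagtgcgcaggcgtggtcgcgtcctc
Ywhag: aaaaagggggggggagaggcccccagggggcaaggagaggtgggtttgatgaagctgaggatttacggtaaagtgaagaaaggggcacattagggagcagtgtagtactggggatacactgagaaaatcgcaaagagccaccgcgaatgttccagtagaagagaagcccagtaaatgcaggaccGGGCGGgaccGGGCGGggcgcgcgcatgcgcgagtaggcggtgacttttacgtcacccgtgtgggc
These lie at chr5:33018566-33018815 on the plus strand (Ywhah) and at chr5:135934642-135934891 on the minus strand (Ywhag). The full TGACGTCA, which is its own reverse complement, occurred once in the Ywhah window, with its first base 96 bases before the start, and not in the windows of Ywhag, Ywhae or Ywhaq. Of 32851 promoter windows of this length 1.55% held it. The GC box occurred in the windows of Ywhah, Ywhag and Ywhae, at 2 places each, and in 32.7% of all windows. In the Ywhah window those 2 GC boxes overlap each other by 1 base and do not overlap the TGACGTCA. G and C made up 68.8% of the Ywhah window and 58.4% of the Ywhag window. The promoter table had 4 of the 6 members, without Ywhab and Ywhaz. A match is a run of letters and not a measured binding site.

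Between the sections the summed 14-3-3 level hardly differed, 4316 CPM labelled trained and 4089 CPM labelled untrained, a log2 ratio of 0.08 [0.07, 0.09]. Beneath it Ywhag was lower and Ywhaq and Ywhaz were higher in the section labelled trained. Ywhag had 461 CPM from 13600 UMIs labelled trained and 627 CPM from 37031 UMIs labelled untrained, a log2 ratio of -0.45 [-0.47, -0.42]. Ywhaq had 814 CPM from 24020 UMIs and 593 CPM from 34990 UMIs, a log2 ratio of 0.46 [0.43, 0.48]. Ywhaz had 902 and 777 CPM, a log2 ratio of 0.22 [0.19, 0.24], which was 0.12 with spots weighted equally, 0.14 in thinned spots and 0.14 when centred on the median of all genes. Ywhah (1155 and 1096 CPM, 0.08 [0.06, 0.10]), Ywhab (407 and 411 CPM, -0.01 [-0.04, 0.02]) and Ywhae (578 and 586 CPM, -0.02 [-0.05, 0.01]) lay near 0. Over all alternatives they ran from 0.0029 to 0.17 for Ywhah, from -0.09 to 0.06 for Ywhab and from -0.18 to 0.02 for Ywhae.

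These differences must be set against those of all genes, since any 2 sections differ. None of the 6 members was past 1.5-fold in either direction over the whole section, where 12.8% of 11460 genes were (8.06% higher and 4.75% lower in the section labelled trained). The median log2 ratio of all genes was 0.07 with a standard deviation over genes of 0.43. Ywhag stood at the 8.21 percentile of those genes and Ywhaq at the 85.9 percentile, whereas the other 4 members lay between the 39.2 and the 65.6 percentile. Exchanged labels would turn these ranks end for end. The summed level of the 4 neuronal markers was higher in the section labelled trained by 0.45 on the log2 scale, of the white matter markers by 0.16, of astrocyte markers by 0.20 and of microglial markers by 0.12. The sum of the endothelial markers was lower there, at -0.19. In the hippocampus the sums were at 0.31 (neuronal), -0.38 (white matter), 0.25 (astrocyte), -0.10 (microglial) and -0.60 (endothelial). Region by region the neuronal sum was higher in the section labelled trained in 14 of 14 regions, whereas the white matter sum was lower in 11 of 14 and higher in the white matter region itself (0.27). All neuronal and white matter markers of these lists were detected in both sections, and the part of such shifts in the ratios of the members was not tested.

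**Figure D4:**
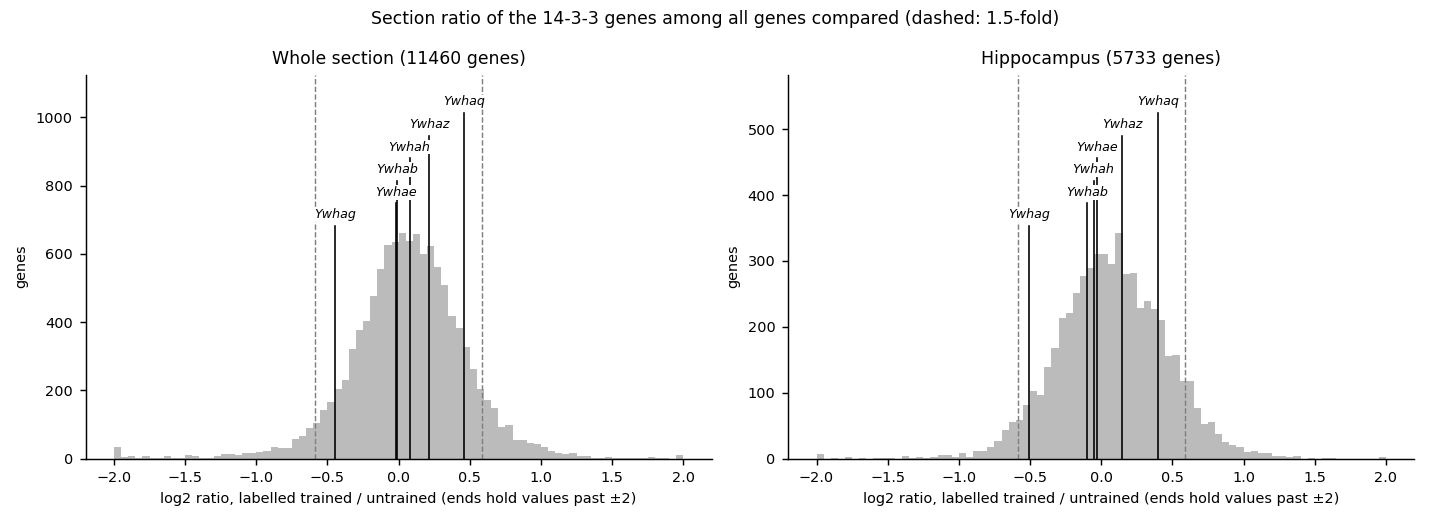
Number of genes (vertical axis) by log2 ratio of levels, trained label over untrained label (horizontal axis), for 11460 genes over the whole section (left) and 5733 genes in the hippocampus (right), with the 14-3-3 genes as labelled lines and 1.5-fold as dashed lines. All 6 genes lie inside the dashed lines, with Ywhag near the lower one and Ywhaq near the upper one.

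In the hippocampus Ywhag again had the lowest ratio and Ywhaq the highest, followed by Ywhaz, while the other members were in another order. Ywhag had 502 CPM labelled trained and 713 CPM labelled untrained, a log2 ratio of -0.50 [-0.57, -0.44] at the 6.09 percentile of 5733 genes. Ywhaq had 679 and 514 CPM, a log2 ratio of 0.40 [0.34, 0.47] at the 80.9 percentile, which was 0.23 with spots weighted equally and 0.27 with the trend with G and C content removed. Ywhaz had 1152 and 1040 CPM (0.15 [0.10, 0.20]), Ywhab 464 and 499 CPM (-0.10 [-0.18, -0.03]), Ywhah 1356 and 1408 CPM (-0.05 [-0.10, -0.01]) and Ywhae 655 and 668 CPM (-0.03 [-0.09, 0.03]). None of the 6 was past 1.5-fold, against 12.9% of all genes there. The ratio of Ywhaz in the hippocampus turned negative when each spot counted alike (-0.04) or was thinned to 1000 UMIs (-0.24) and was 0.0021 on the left side alone, 0.07 without mitochondrially encoded genes in the total and 0.08 when centred on the median of all genes. Over all alternatives the hippocampal ratio ran from -0.25 to 0.0098 for Ywhah, from -0.21 to 0.03 for Ywhae and from -0.23 to -0.07 for Ywhab. That of Ywhag there went past 1.5-fold when each spot counted alike (-0.60). In bulk RNA of dissected CA1 and CA3 from other mice, the study names Ywhag among the genes raised with training in both. That is opposite to the direction by deposited label here, in another assay and other animals. The neuropil, at low depth, had 136 spots labelled trained and 39 labelled untrained.

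Region by region the direction against 0 was steady for Ywhag and nearly so for Ywhaq and Ywhaz. The median log2 ratio of all genes compared was itself above 0 in each region, from 0.0061 in the habenula to 0.16 in the striatum. A ratio above 0 was thus the more usual case, and runs of 1 sign over the regions were not counted for other genes. Ywhag was lower in the section labelled trained in 14 of 14 regions, each with its counting interval below 0, from -0.24 in the meninges and vessels to -0.998 in the striatum, with a median of -0.45. Past 1.5-fold it was lower in the striatum, where 6.48% of genes were, and in the parvalbumin- and neurofilament-rich region (-0.62), where 4.04% were. In the neuropil it was at -0.74 with too few UMIs to be counted. The striatum rested on 243 spots labelled trained and 56 labelled untrained, so the sections caught different amounts of it.

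Ywhaq was higher in 13 of 14 regions, from 0.27 in the meninges to 0.58 in white matter, just under 1.5-fold, and lower in the neuropil (-0.42 [-0.82, -0.01]). In white matter the summed level of the 8 white matter markers was also higher in the section labelled trained, by 0.27, and its part in the ratio of Ywhaq was not tested. Ywhaz was likewise higher in 13 of 14, up to 0.66 in the striatum, the only region where it was past 1.5-fold (20.7% of genes were higher there), and lower in the neuropil (-0.45). In the regions with enough UMIs to rank it, Ywhaz ran from the 51.5 percentile of genes (deep neocortex) to the 83.5 percentile (midline thalamus). Ywhaq ran from the 58.7 percentile (striatum) to the 90.6 percentile (white matter). Ywhah was higher in 8 and lower in 6 regions, between -0.39 in the neuropil and 0.30 in the midline thalamus. Ywhab was higher in 6 and lower in 8. Ywhae was higher in 6 and lower in 8, and its interval took in 0 in all 14 regions. The regions of a section share 1 animal and 1 library, so they do not repeat the comparison.

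**Figure D5:**
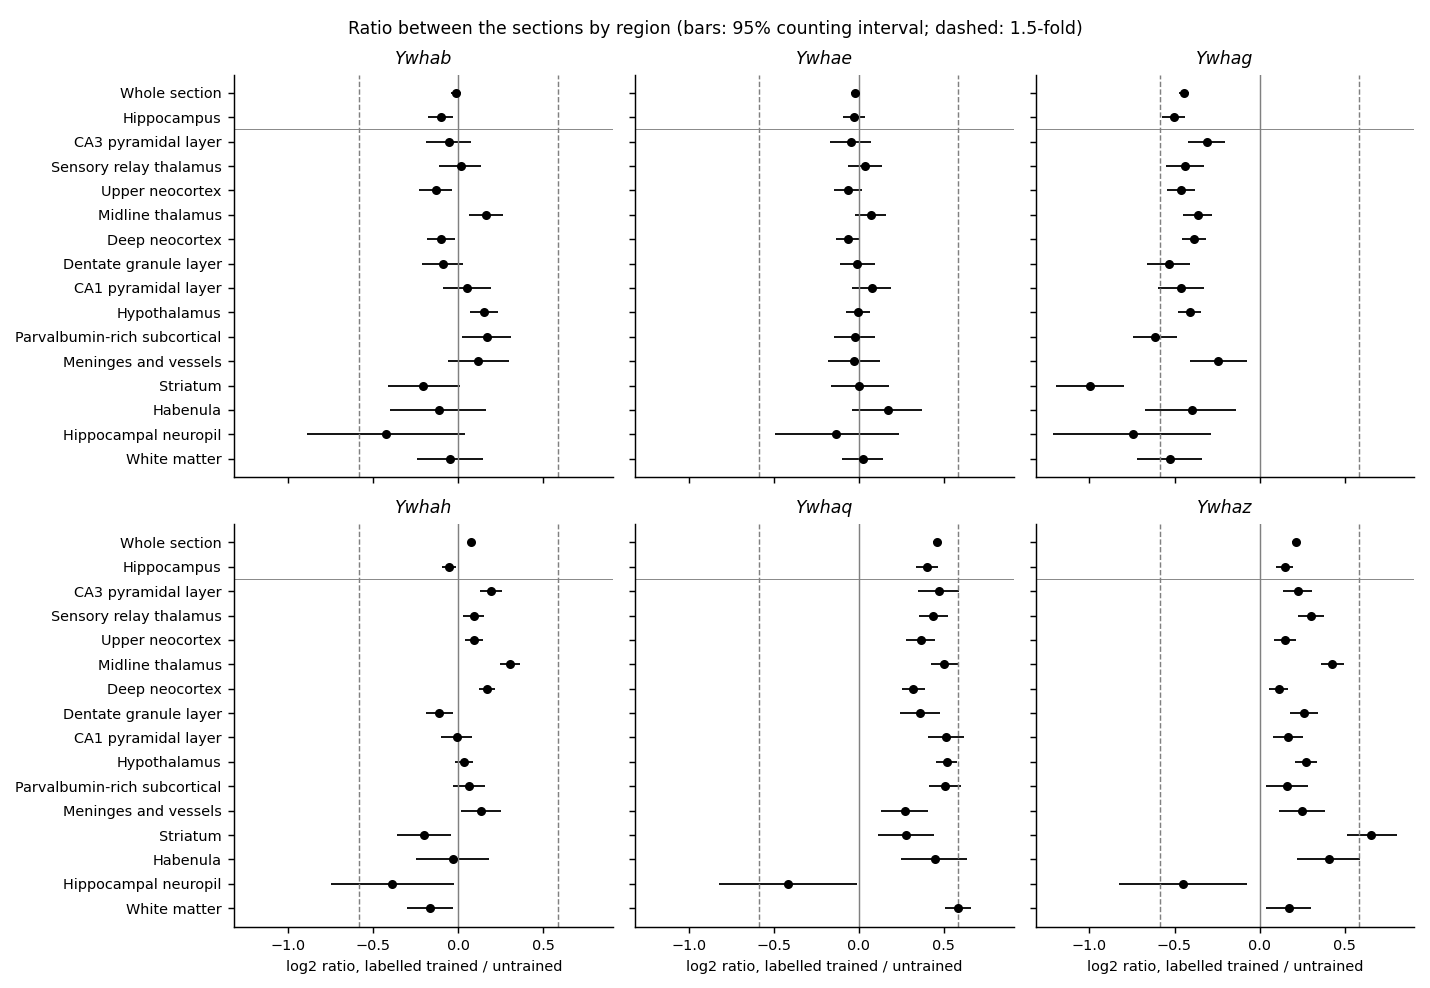
Log2 ratio of levels, trained label over untrained label, for each 14-3-3 gene (horizontal axis), for the whole section, the hippocampus and 14 regions, with 95% counting intervals, a line at 0 and dashed lines at 1.5-fold. All points of Ywhag lie left of 0, 13 of 14 regions of Ywhaq and of Ywhaz lie right of it with the neuropil as the exception, and the intervals of Ywhae all cross it in the regions.

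The opposite ratios of Ywhaq and Ywhag were also set against each other within a section, where the total cancels. This pair holds the highest and the lowest whole-section ratio of the members, so the quotient restates those ratios and adds no separate support. There were 1.77 Ywhaq UMIs per Ywhag UMI in the whole section labelled trained and 0.945 in the section labelled untrained, 1.87 times as many. In thinned spots the values were 1.97 and 1.09, 1.8 times as many, so the section labelled untrained moved to the other side of 1 while the quotient stayed close. In the hippocampus the values were 1.35 and 0.721, in CA3 0.984 and 0.573, and in white matter 8.08 and 3.75. The quotient between the sections ran from 1.26 in the neuropil to 2.42 in the striatum. It was above 1 in all 14 regions, which follows largely from the regional ratios already given, and other gene pairs were not compared. At equal depth the same pair differed in detection, since Ywhag had a UMI in 33.8% of 3914 thinned spots labelled trained and 43.2% of 3596 labelled untrained, and Ywhaq in 54.3% and 46.3%. Before thinning the members had a UMI in 75.7% to 89.2% of the spots labelled trained and in 89.3% to 95.4% of those labelled untrained. Ywhag also has the highest share of G and C in its transcript among the members, 52.5% against 45.1% for Ywhaq and a median of 49.8% over the genes compared. The share was 50.4% for Ywhah, 47.4% for Ywhab, 45.6% for Ywhaz and 43.9% for Ywhae, so the lowest share belonged to a member with a ratio near 0. With the trend of the ratios with this share removed, the whole-section values were -0.35 for Ywhag, 0.33 for Ywhaq, -0.18 for Ywhae, -0.07 for Ywhab and 0.11 for both Ywhah and Ywhaz. The ratio of Ywhaz thus fell from 0.22 to 0.11, and in the hippocampus from 0.15 to 0.03.

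Of 46 genes listed as partners of 14-3-3 proteins, 43 had at least 400 UMIs over both sections. Of these 5 were past 1.5-fold higher in the section labelled trained and 0 lower, beside 8.06% and 4.75% of all genes, and the median log2 ratio of those compared was -0.05 against 0.07 over all genes. With ratios centred on the median of all genes fewer were higher and a lower one appeared, as given at the end. Sgk1, a stress- and hormone-induced kinase that phosphorylates binding motifs, was highest at 1.21 (320 and 139 CPM), and was at 0.71 in the hippocampus. Th, the tyrosine hydroxylase that the family was named for activating, was at 0.94 with 248 and 259 UMIs. The kinase genes Lrrk2 (0.77) and Mark3 (0.65) followed, and Pfkfb2 of glycolytic control (0.62), which is outside the naming rule and was chosen after its value was seen, completed these 5. The lowest were the polarity kinase gene Mark2 (-0.58), the transcription cofactor Wwtr1 (-0.50), the growth inhibitor Tsc2 (-0.50) and the transcription factor Foxo1 (-0.48). Tph2, the neuronal tryptophan hydroxylase, had 28 and 32 UMIs and was not compared. By role, the median log2 ratio was -0.26 over 9 transcription factors and cofactors that 14-3-3 proteins hold in the cytoplasm, -0.24 over 5 genes of growth and metabolism and -0.13 over 6 of the cytoskeleton and transport. It was -0.05 over 6 kinases that phosphorylate binding motifs, 0.05 over 5 other kinases and 0.23 over 5 RAF and stress kinases, and the remaining roles had at most 3 genes compared. In the hippocampus 30 partners could be compared, of which 2 were higher (8.74% of genes) and 0 lower (4.15%).

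Outside the 14 regions, the choroid plexus, which makes cerebrospinal fluid and holds no neurons, had low levels of every member. It comprised 26 spots labelled trained and 86 labelled untrained. Ywhah stood at 315 and 212 CPM, Ywhaz at 409 and 264 CPM, Ywhaq at 362 and 314 CPM, Ywhae at 336 and 344 CPM, Ywhab at 193 and 179 CPM and Ywhag at 134 and 200 CPM. An unnamed cluster led by Ccdc153 and Tmem212, genes of ciliated cells, had 26 and 64 spots and held 1182 and 708 CPM of Ywhaq, next to white matter in the section labelled trained. A further unnamed cluster held 182 spots labelled untrained and 1 labelled trained, and whether it is tissue that the other section lacks or a property of that library was not tested.

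The left and right sides of a section gave a measure of how far levels differ within 1 library. The sides share an animal, a plane and a library, so this measure leaves out the spread between animals, planes and libraries. It cannot show whether a gap between the sections exceeds that spread. For Ywhag over the whole section the sides were at 481 and 445 CPM in the section labelled trained and 615 and 636 CPM in the section labelled untrained. The sides of each section thus lay closer together than the sections. For Ywhaq they were 790 and 831 CPM and 588 and 596 CPM, with the same result. For Ywhaz the sides were 834 and 949 CPM and 742 and 803 CPM. In the section labelled trained the sides of Ywhaz thus differed by more than the left sides of the sections did.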

How the data were processed

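Deposited filtered matrices were used, in which the authors had counted UMIs per gene and spot with Space Ranger 2.0.0 on mm10. The score Moran's I and summed counts came from tables deposited by the authors; their other columns and the images were not used. Groups were those of the sample titles, 1 section each.

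UMIs were pooled over the spots of a region and scaled to CPM, with exact Poisson intervals. Section ratios had a pseudocount of 0.5 UMI and exact conditional binomial intervals, and shares had Clopper-Pearson intervals, all at 95%. With 1 section per group no test was run, and a gene was counted as different at 1.5-fold among genes with at least 400 UMIs over both sections. PCR and shared tissue make intervals cover counting error only. Calculations were tested on simulated data.

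Both sections were clustered together on 946 genes (the 3000 most variable of each section that were shared, without the members, partners, immediate early, mitochondrially encoded, ribosomal protein and haemoglobin genes). Spots were reduced to 30 principal components, and a graph of 15 neighbours was divided by the Leiden method (resolution 1.5, seed 7) into 24 clusters, with 308 spots under 500 UMIs left out. A cluster was named when at least 3 of its markers reached 5 CPM and at least 1 was among its 10 leading genes. The rules for names and for the outline of the hippocampus were set after maps were seen. The 14 regions had at least 30 spots in each section.

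The members, lists and rules were chosen with earlier results of these data known. The text names the 6 members, Sfn, the 3 genes most like each member, the 4 highest and 4 lowest partners, Th and Tph2. Some genes that this rule would name are not reported here. Alternatives were the total, the weight and depth of spots, the side, the weight of regions, the share of G and C, the fold, the count minimum and the resolution. Coding sequences were aligned with MAFFT 7.526 and copies sought with blastn 2.17.0. Calculations used scanpy 1.11.5 and leidenalg 0.10.2 for clusters, scipy 1.17.1 for intervals, numpy 2.4.6 and pandas 2.3.3 for sums, and matplotlib 3.10.9 for figures, under Python 3.11.15.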

Additional observations from a re-analysis of the deposited data

How the results depend on the processing

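No paired analysis was possible because each group was 1 section and the groups shared a single replicate number. The whole-section ratios of Ywhag, Ywhah, Ywhaq and Ywhaz kept their sign under all alternatives run. Values near 0 changed sign: over the whole section Ywhab was at 0.058 on the left side and 0.0167 with regions weighted alike, and Ywhae at 0.018 with spots weighted equally and 0.0024 on the right side; in the hippocampus Ywhae was at 0.032 on the right side and Ywhah at 0.0098 with regions weighted alike. The hippocampal ratio of Ywhaz was -0.043 with spots weighted equally and -0.243 in thinned spots, and that of Ywhag was -0.604 with spots weighted equally, where 1 paralog was past 1.5-fold lower. At the lower fold limit listed as an alternative, 1 paralog was lower and 1 higher over the whole section, beside 13.4% and 23.9% of genes. With a minimum of 100 UMIs, 9.06% of 14155 genes were higher and 7.29% lower. Partners past 1.5-fold lower numbered 1 without mitochondrially encoded genes in the total and 1 with ratios centred on the median of all genes, when 3 were higher. Members past 1.5-fold lower in the neuropil than in the rest numbered 1 without mitochondrially encoded genes in the total, which was added after seeing the data. The log2 span between regions of Ywhae was 0.477 at resolution 2.0, 0.356 without mitochondrially encoded genes and 0.563 with spots weighted equally in the section labelled trained, and 0.817 at resolution 1.0 in the section labelled untrained.

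Shares of the 14-3-3 UMIs moved beyond their counting intervals. In thinned spots of the section labelled trained they were 9.251% (Ywhab), 13.97% (Ywhae), 25.47% (Ywhah), 20.79% (Ywhaq) and 19.96% (Ywhaz), and of the section labelled untrained 9.633% (Ywhab), 14.92% (Ywhae), 14.9% (Ywhag), 25.71% (Ywhah), 16.3% (Ywhaq) and 18.53% (Ywhaz). With spots weighted equally they were 14.46% (Ywhae), 24.09% (Ywhah), 22.05% (Ywhaq) and 19.34% (Ywhaz) in the section labelled trained, and 9.709% (Ywhab), 15.09% (Ywhae), 14.81% (Ywhag), 24.73% (Ywhah), 17.6% (Ywhaq) and 18.07% (Ywhaz) in the section labelled untrained. The cause of these shifts was not tested. The remaining 188 values kept their direction and their side of the limit, or moved within their intervals, and values so counted could still change in size. The lowest region of Ywhaq in the section labelled trained also changed, from the neuropil to the dentate granule layer at resolution 2.0. Depth limits the neuropil, where the members had between 71 and 141 UMIs in the section labelled trained.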
